A study of Mus musculus with 12 samples.

Results

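The response of YAP-deleted mouse liver to TCPOBOP was read from 5 of the 12 single-colour Affymetrix arrays of the series: 3 from YAP KO livers on day 2 after the compound and 2 from YAP KO livers on day 0. The arrays were chosen by their labels alone, and all 14102 genes that passed a filter on low signals were compared. The mice were female YAP fl/fl animals aged 8 to 12 weeks. The KO mice had received AAV8.TBG.PI.Cre.rBG, an adeno-associated virus whose TBG promoter restricts Cre to hepatocytes, so the other liver cells kept Yap1. The day 2 group was given TCPOBOP by gavage at 3 mg/kg in corn oil 10 days after the virus, and the day 0 group was given the virus and nothing else. WT livers came from YAP fl/fl mice given AAV8.TBG.PI.eGFP.WPRE.bGH8 (3 arrays on day 2 and 2 on day 0, with the same dose). Their values are reported only to show where KO livers differed, and the 1 pooled KO array of day 1 is given by its values. The filter and the fit used all 12 arrays, so the WT arrays also add to the spread behind the KO standard errors and p-values. All later samples had been given TCPOBOP, so the compound, the gavage, elapsed time and the conditions of harvest cannot be told apart. The labels do not say which arrays came from separate animals, and p-values measure only the spread between these samples.

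TCPOBOP is a synthetic agonist of the constitutive androstane receptor (CAR, gene Nr1i3), a nuclear receptor that resides mainly in hepatocytes and, once in the nucleus, switches on genes for the oxidation, conjugation and export of foreign compounds. In rodents it is also a direct mitogen: hepatocytes enter the cell cycle and the liver grows without prior loss of tissue. YAP is a transcriptional co-activator that binds TEAD factors and is held in the cytoplasm by the kinases of the Hippo pathway, which limits the size of the liver. The comparison asks which genes differ between day 2 and day 0 when hepatocytes have been depleted of YAP.

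Signals are intensities in arbitrary units, and changes are differences of log2(signal + 16), KO day 2 minus KO day 0, with the standard error from limma (n = 3 and 2 arrays). A gene is called where limma's Benjamini-Hochberg adjusted p over all 14102 genes is under 0.05, and "rose" and "fell" are used of such genes only. Folds are omitted where the lower group holds a signal under 64, since the added 16 units shape them. The KO day 2 arrays had a narrower signal range than the KO day 0 arrays. Their brightest gene read 48217, 52350.0 and 67457, against 98254 and 88576 on the KO day 0 arrays, and the spiked control cre, which is added in the laboratory, read 16684, 16986 and 21575 against 41140 and 37247. All 4 spiked controls were lower on every KO day 2 array than on either KO day 0 array, by 0.69 (bioB), 1.01 (bioC), 1.15 (bioD) and 1.10 (cre) on the log2 scale. The 152 genes with a mean log2 signal over 14 had a median change of -0.42 as deposited and -0.05 after quantile normalization, which gives all arrays the same distribution. Genes between 12 and 14 had a deposited median of -0.13, and the bins under 12 had medians between 0.00 and 0.09. Changes of genes with a mean over 14 are therefore given with their quantile-normalized value, as are those of some genes below it, and the part of this range in each result was not tested. The ratio of 3' to 5' probe sets was 1.55 to 1.80 on KO day 2 arrays and 1.90 and 1.53 on KO day 0 arrays for actin, and 0.73 to 0.75 against 0.92 and 0.75 for Gapdh.

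**Figure D1:**
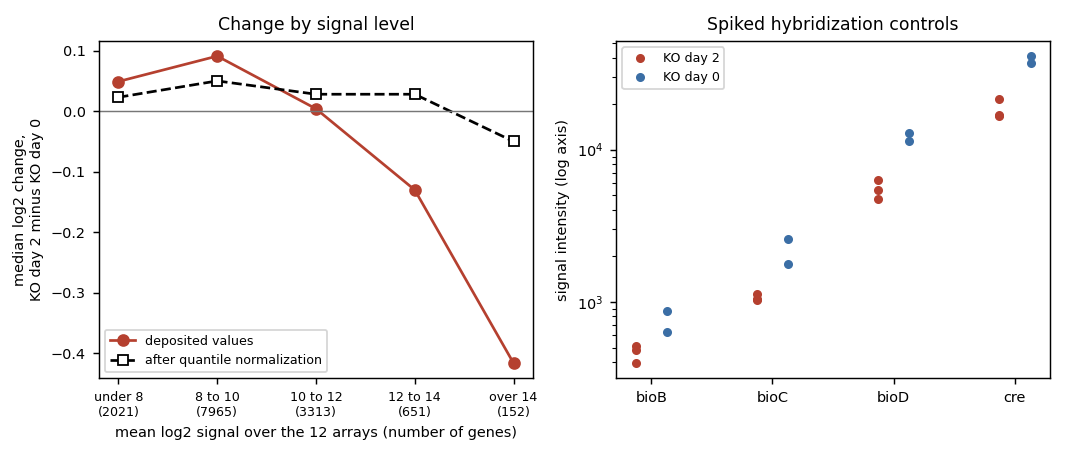
Left, median log2 change (KO day 2 minus KO day 0) of genes grouped by mean log2 signal, for deposited values (filled circles) and after quantile normalization (open squares). Right, signals of the spiked controls on each KO array (log axis). Deposited values of the brightest group stand at -0.42 against -0.05 after normalization, and each control is lower on all KO day 2 arrays.

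Hepatocyte markers were bright on every array, with a summed signal of 275097 to 347556 on KO day 2 arrays and 484588 to 569714 on KO day 0 arrays. Of the 9 tested, 8 were called lower as deposited and 3 after quantile normalization, and their median change was -0.84 and -0.10. Yap1 read 572, 539 and 797 on KO day 2 arrays and 632 and 596 on KO day 0 arrays, which overlap (adjusted p 0.955). The WT arrays read 1239.9, 1059.6 and 1306 on day 2 and 1234 and 1293 on day 0, all above the KO arrays. Whether its probes lie in the deleted part is not known here. In whole tissue, fewer cells of a type and less RNA per cell cannot be told apart.

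Limma called 1225 of the 14102 genes (8.69%) between KO day 2 and KO day 0. Of these, 592 (4.2%) were higher and 633 (4.49%) lower on day 2, and the median change of all genes was 0.05. Counts of called list members given below stand against these shares. After quantile normalization 679 (4.81%) were higher and 617 (4.38%) lower, and 565 and 561 of the genes called as deposited were among them. All 1225 had arrays that did not overlap between the groups, as did 40.4% of all genes (22.6% higher and 17.8% lower). Where a called gene is said to have separated groups, this describes its values and adds no support to the call. A change over 4-fold was seen in 73 of the rises and 53 of the falls. Of the rises, 292 were also called higher in WT livers, which is 49.3% of the KO rises and 28.5% of the 1024 WT rises (7.26% of all genes). Of the falls, 218 were shared, 34.4% of the KO falls and 28.8% of the 758 WT falls (5.38%). The counts moved with single arrays: without KO day 0 replicate 2 there were 545 rises and 708 falls, without KO day 0 replicate 1 there were 684 and 420, and without KO day 2 replicates 1, 2 or 3 there were 366, 337 or 369 rises and 483, 440 or 460 falls. With every one of these arrays left out in turn, 246 rises and 283 falls stayed called throughout.

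**Figure D2:**
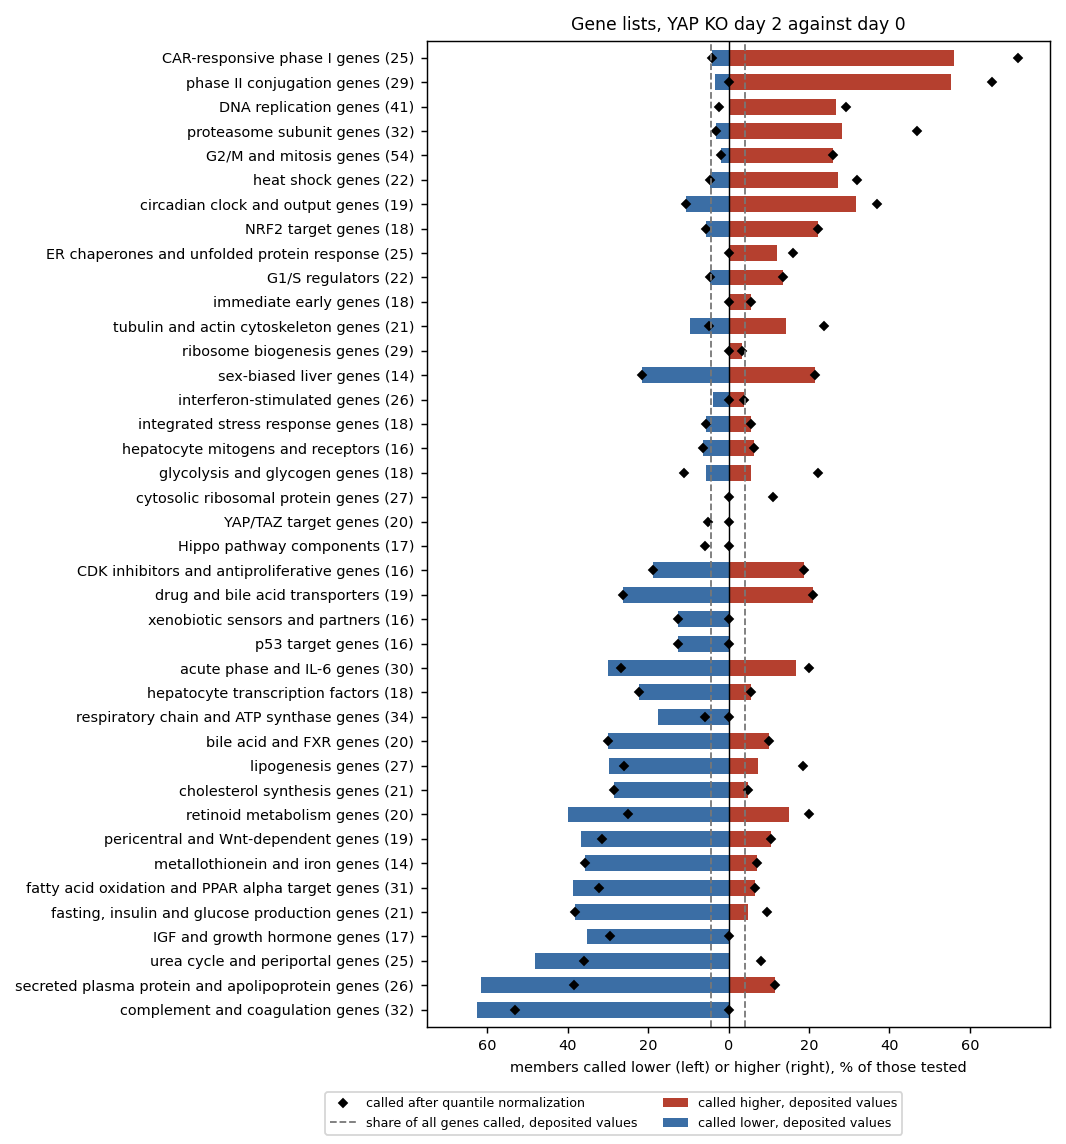
Share of the tested members of each gene list (number in brackets) called higher (right) or lower (left) at KO day 2 than at KO day 0. Bars are deposited values, diamonds quantile-normalized values, and dashed lines the share of all genes called, 4.2% higher and 4.49% lower. Drug metabolism lists reach 56.0% higher, and complement and plasma protein lists reach 62.5% and 61.5% lower.

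Many of the measured genes of phase I, the oxidation and hydrolysis step of drug metabolism, rose. Cyp2b10, the classical CAR target, read 36931, 36514 and 40975 on KO day 2 arrays, against 1771 and 1867 on KO day 0 arrays, a 20.8-fold rise (log2 4.38 ± 0.11, 4.67 after quantile normalization, adjusted p 1.41e-09). Cyp2c55, a cytochrome P450 that oxidizes arachidonic acid, read 26344, 28659.6 and 30499 against 699 and 446 (5.63 ± 0.17, 5.93 normalized). Both genes were far apart between the groups, and the day 0 arrays of Cyp2c55 lay further from each other than those of Cyp2b10. Ces2a, a carboxylesterase, read 41183, 43286 and 53278 against 7347 and 5766 (log2 2.81 ± 0.15, 3.32 after quantile normalization). Of the 25 CAR-responsive phase I genes measured, 14 rose and 1 fell, with a median log2 change of 0.68 (1.25 after quantile normalization, with 18 higher and 1 lower). The member called lower was Ces1f, a carboxylesterase, at -0.65 ± 0.15. Ces1f lost its call without KO day 0 replicate 1, KO day 2 replicate 1 or KO day 2 replicate 2 (adjusted p 0.116, 0.0726 and 0.0514). Cyp3a44 rose 7.43-fold (2.89 ± 0.30), Cyp3a13 2.92-fold (1.54 ± 0.13) and Cyp1a2 2.13-fold (1.09 ± 0.13). Alas1, the rate-limiting enzyme of the haem that P450 proteins need, read 13026, 16204 and 17791 on KO day 2 arrays and 3460.0 and 4842 on KO day 0 arrays (1.92 ± 0.18, 2.09 normalized). The microsomal epoxide hydrolase Ephx1 rose by 1.33 ± 0.12 (1.58 normalized) and the flavin monooxygenase Fmo5 by 1.29 ± 0.15 (1.49 normalized). Probe sets of the Cyp2b, Cyp2c and Cyp3a families may read more than 1 member.

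Members without a call or with a signal near the top of the range need the second scale. Cyp3a11, the main murine CYP3A enzyme, read 41942, 44365 and 57010.2 against 59771 and 52215, overlapping groups with a deposited log2 value of -0.24 (adjusted p 0.332); after quantile normalization it was called higher, at 0.46 (adjusted p 0.00314). Cyp2c29, a steroid and arachidonate hydroxylase, rose on both scales (1.15 ± 0.13 and 1.78). The gene for CAR itself, Nr1i3, read 1756, 1646 and 1938 against 2871 and 2629.5 (-0.62 ± 0.16, adjusted p 0.0281). Nr1i3 lost its call without KO day 0 replicate 1, KO day 0 replicate 2, KO day 2 replicate 1 or KO day 2 replicate 2 (adjusted p 0.113, 0.0535, 0.0753 and 0.103). Of the 16 xenobiotic sensors and partners, the other called gene was Ppara, the receptor that drives fatty acid oxidation, which fell to 914, 818 and 736 on KO day 2 arrays, against 2411 and 1452 on KO day 0 arrays (-1.18 ± 0.21). The gene of the pregnane X receptor, Nr1i2, did not pass (0.17, adjusted p 0.654).

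Phase II genes attach glutathione, glucuronic acid or sulfate to drugs and their metabolites. Of 29 measured, 16 rose and 1 fell as deposited, with a median of 0.89, and 19 rose and 0 fell after quantile normalization (median 0.98). The estrogen sulfotransferase Sult1e1 read 1543, 873 and 772 on KO day 2 arrays, against 39.7 and 24.1 on KO day 0 arrays (4.45 ± 0.41). The glutathione transferase Gstm2 read 14730.4, 14159.8 and 15938 against 1815 and 2453, a 7.03-fold rise (2.81 ± 0.17, 2.95 normalized), and its relative Gstm3 read 29239.5, 33187 and 43669 against 6446 and 4887 (2.63 ± 0.18, 2.93 after quantile normalization). In each of the 3 the groups were clearly separated. Gsta2 (2.12 ± 0.31), Gsta4 (1.73 ± 0.17), Gstt1 (1.21 ± 0.11) and Gstt3 (1.84 ± 0.12) rose as well. The supply side also rose: Ugdh, which makes UDP-glucuronic acid, by 1.41 ± 0.15, and Papss2, which makes the sulfate donor PAPS, by 0.92 ± 0.12. Gstm1, a bright gene, read 40250.5, 41606 and 51976 against 38251 and 38500.5 and was called only after quantile normalization (0.21 as deposited, 0.77 normalized). The member called lower, Mgst1, a microsomal glutathione transferase, stood at -0.49 ± 0.11 as deposited and 0.17 after quantile normalization (adjusted p 0.238). Mgst1 lost its call without KO day 2 replicate 1 or KO day 2 replicate 2 (adjusted p 0.0587 and 0.0904).

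Of 19 drug and bile acid transporters, 4 rose and 5 fell on both scales (21.1% and 26.3%, against 4.2% and 4.49% of all genes as deposited). The rises were those of the basolateral exporters Abcc4, which read 1116, 1053 and 778 on KO day 2 arrays against 205 and 157 on KO day 0 arrays (5.05-fold, 2.34 ± 0.21), and Abcc3 (2.36-fold, 1.24 ± 0.12), and of the canalicular exporters Abcc2 (2.77-fold, 1.47 ± 0.12) and Abcb1a (3.24-fold, 1.70 ± 0.23). Slco1a1, a sinusoidal uptake carrier of organic anions, read 1058, 1172 and 1167 against 5547 and 3832 and fell 4.03-fold (-2.01 ± 0.21). Slco2b1 (-0.82 ± 0.13) and Slc22a7 (-1.16 ± 0.23), also uptake carriers of organic anions, fell too, as did the exporters Abcg8, a subunit of the sterol exporter (-0.62 ± 0.11), and Abcc6 (-0.73 ± 0.20). Slc22a7 lost its call without KO day 0 replicate 1 (-1.11, adjusted p 0.0517). Abcc6 lost its call without KO day 0 replicate 1, KO day 2 replicate 1, KO day 2 replicate 2 or KO day 2 replicate 3 (adjusted p 0.248, 0.0602, 0.133 and 0.0807). The bile salt uptake carrier Slc10a1 (-0.40, -0.13 after quantile normalization, adjusted p 0.0732) and the bile salt export pump Abcb11 (-0.24, adjusted p 0.313) did not pass. Without KO day 0 replicate 1, 3 transporters were called lower in place of 5.

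Regulators of entry into the cell cycle rose in part. Myc, a transcription factor that drives growth, read 506, 570.0 and 669 on KO day 2 arrays, against 72.2 and 132 on KO day 0 arrays (5.21-fold, 2.38 ± 0.41). Ccnd1, the cyclin that starts the passage through G1, read 6642, 7482 and 9039.5 against 3603 and 2546 (2.52-fold, 1.33 ± 0.17). Ccne1, the cyclin of the G1/S transition, read 445, 522 and 542 against 175 and 187 (2.63-fold, 1.39 ± 0.27). None of the 3 overlapped between the groups, and each stayed called without any 1 KO array. Those were the 3 rises among 22 G1/S regulators (13.6%), and 1 member, Cdk6, a partner of D-type cyclins, fell (-1.12 ± 0.27). Cdk6 lost its call without KO day 0 replicate 1, KO day 0 replicate 2, KO day 2 replicate 2 or KO day 2 replicate 3 (adjusted p 0.0831, 0.0869, 0.0827 and 0.0793). The E2F factor gene E2f8 read 429, 808 and 414 against 409 and 428 and did not pass (adjusted p 0.569).

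Among DNA replication genes, 11 of 41 rose and none fell (26.8%, against 4.2% of all genes; median log2 change 0.57). Rrm2, the subunit of ribonucleotide reductase whose level follows S phase, read 2854, 1643 and 2007 on KO day 2 arrays, against 343 and 436 on KO day 0 arrays (5.28-fold, 2.40 ± 0.20). Mcm2, a subunit of the replicative helicase, read 874, 1081 and 885 against 144 and 214 (5-fold, 2.32 ± 0.26). Tk1, which salvages thymidine, read 1102, 1105 and 887 against 353 and 228 (3.47-fold, 1.80 ± 0.22). All 3 were higher on every KO day 2 array. The helicase subunits Mcm4 (1.44 ± 0.25) and Mcm7 (0.83 ± 0.14) and the primase Prim1 (0.98 ± 0.15) rose as well. Gins1, of the helicase complex, read 150.2, 129 and 89.5 against 175 and 474 and did not pass (adjusted p 0.184). The count of rises was 7 without KO day 0 replicate 1 and 7 without KO day 2 replicate 2.

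Of the 54 genes of G2 and mitosis, 14 rose and 1 fell (25.9% higher; median 0.55). Cdk1, the kinase whose activation starts mitosis, read 1004, 562 and 773 on KO day 2 arrays, against 77.5 and 47.0 on KO day 0 arrays (3.34 ± 0.27). Its partner Ccnb2, a B-type cyclin, read 879.8, 431 and 676 against 44.9 and 50.2 (3.36 ± 0.29). In both, KO day 2 replicate 2 was the lowest of its group and still above both KO day 0 arrays. The spindle checkpoint gene Mad2l1 read 446, 499 and 410.0 against 99.2 and 36.6 (2.58 ± 0.34). Ube2c, which supplies ubiquitin for mitotic exit, read 715, 518 and 596 against 174 and 126 (3.77-fold, 1.91 ± 0.23). Top2a, which untangles sister DNA, read 520.2, 471 and 677 against 184 and 163 (2.99-fold, 1.58 ± 0.22), and the mitotic kinase Aurkb rose 2.45-fold (1.29 ± 0.22). Mki67, a marker of cycling cells, read 433, 336 and 392 against 72.0 and 219 (1.48 ± 0.38, adjusted p 0.032). Mki67 lost its call without KO day 0 replicate 1, KO day 2 replicate 1, KO day 2 replicate 2 or KO day 2 replicate 3 (adjusted p 0.205, 0.0928, 0.0636 and 0.0866). Ccna2, the cyclin of S and G2, read 1312, 1022 and 1180.3 against 312 and 627 (1.36 ± 0.28, adjusted p 0.00968). Ccna2 lost its call without KO day 0 replicate 1 (0.88, adjusted p 0.076). Foxm1, a transcription factor of G2 genes, read 1643, 1427 and 928 against 1102 and 1443 (adjusted p 0.954), and Birc5, the gene for survivin, read 443, 72.3 and 535 against 66.5 and 58.0 (adjusted p 0.0933), with 1 KO day 2 array near the day 0 level. The member that fell was Ccnf, a cyclin-like F-box protein, at 49.6, 60.8 and 92.6 against 336 and 194 (-1.73 ± 0.43). Ccnf lost its call without KO day 0 replicate 1, KO day 2 replicate 1 or KO day 2 replicate 2 (adjusted p 0.167, 0.0724 and 0.0725). Without KO day 0 replicate 1 the list held 7 rises.

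Promoters of the rising mitotic genes are shown because many genes of G2 and mitosis are known to carry CCAAT boxes, bound by NF-Y, and a cell cycle homology region, bound by the DREAM complex. In the 250 bases before the RefSeq start (GRCm38.p6), CCAAT, on either strand, stood in 8 of the 9 rising genes of G2 and mitosis with a listed promoter, in 9 of 10 rising replication genes and in 37.5% of 27025 genes. TTTGAA, on either strand, stood in 6 of 9, 1 of 10 and 18.3%. Such a match describes the letters and shows no binding. Cdk1 (chr10:69352913-69353162, minus strand), Ccnb2 (chr9:70421555-70421804, minus strand) and Ube2c (chr2:164769679-164769928, plus strand) were picked after the matches were seen. Each is written 5' to 3' up to the base before the start, with the CCAAT box and the TTTGAA element, on either strand, in capitals.
Cdk1: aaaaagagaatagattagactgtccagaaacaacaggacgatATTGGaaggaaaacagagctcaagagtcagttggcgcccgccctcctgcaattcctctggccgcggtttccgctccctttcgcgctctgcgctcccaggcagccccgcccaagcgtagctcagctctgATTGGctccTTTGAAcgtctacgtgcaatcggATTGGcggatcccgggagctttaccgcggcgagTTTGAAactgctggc
Ccnb2: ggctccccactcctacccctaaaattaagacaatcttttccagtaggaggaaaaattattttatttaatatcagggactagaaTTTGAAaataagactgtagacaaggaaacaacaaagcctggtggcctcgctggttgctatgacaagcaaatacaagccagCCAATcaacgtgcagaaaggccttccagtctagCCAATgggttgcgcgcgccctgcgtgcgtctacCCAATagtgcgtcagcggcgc
Ube2c: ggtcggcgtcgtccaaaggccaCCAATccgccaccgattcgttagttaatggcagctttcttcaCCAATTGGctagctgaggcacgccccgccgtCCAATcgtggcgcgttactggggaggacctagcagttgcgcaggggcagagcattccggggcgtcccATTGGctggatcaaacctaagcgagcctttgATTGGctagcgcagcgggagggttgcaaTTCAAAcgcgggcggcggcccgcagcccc
Cdk1 holds 3 CCAAT and 2 TTTGAA matches, Ccnb2 3 and 1, and Ube2c 6 and 1, where 2 of the 6 overlap by 2 bases.

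Genes that restrain growth split in both directions. Of 16 CDK inhibitors and antiproliferative genes, 3 rose and 3 fell, on both scales. Gadd45b, a stress sensor that TCPOBOP is known to induce through CAR, read 1960.3, 2703 and 2437 on KO day 2 arrays, against 237 and 288 on KO day 0 arrays (8.51-fold, 3.09 ± 0.30). Its relative Gadd45a read 775, 476 and 466 against 40.0 and 71.7 (3.03 ± 0.32). Wee1, the kinase that holds Cdk1 inactive, read 1141, 863 and 1223 against 79.5 and 255 (6.71-fold, 2.75 ± 0.42). In these 3 genes every KO day 2 array lay above both KO day 0 arrays. Btg1, an antiproliferative transcriptional cofactor, fell to 1573, 1800.4 and 1174 on KO day 2 arrays, against 4130.0 and 3884 (2.67-fold lower, -1.41 ± 0.16). Cebpa, a factor of the quiescent hepatocyte, fell to 5879, 5222 and 4855 against 9250.4 and 10396 (-0.89 ± 0.15). Gadd45g, the remaining Gadd45 gene, read 23.0, 39.6 and 23.3 against 260.0 and 174 (-2.38 ± 0.58). Gadd45g lost its call without KO day 0 replicate 1, KO day 0 replicate 2, KO day 2 replicate 1 or KO day 2 replicate 3 (adjusted p 0.127, 0.0519, 0.0582 and 0.0576). The p53 target Cdkn1a, which encodes p21, read 888, 817 and 976 against 1312 and 826 and did not pass (adjusted p 0.589). Of the 16 p53 targets 0 rose and 2 fell (12.5%, against 4.49% of all genes). These counts were 1 and 1 without KO day 0 replicate 1, and 0 and 1 without KO day 2 replicate 1 or 2.

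None of the 20 YAP/TAZ target genes and none of the 17 Hippo pathway components measured was called as deposited. At an unadjusted p under 0.05, limma gave 5 and 3, and after quantile normalization 1 gene of both lists, Lats2, was called lower (-1.72, adjusted p 0.0484). Single arrays moved this by 1 gene: 1 YAP/TAZ target was called higher without KO day 0 replicate 1 or KO day 2 replicate 2, and 1 lower gene was called in each list without KO day 2 replicate 3. The classical targets Ccn1, at 505, 387 and 316 on KO day 2 arrays and 506 and 386 on KO day 0 arrays (-0.15, adjusted p 0.843), and Ccn2, at 340.1, 260.5 and 202 on KO day 2 arrays and 332 and 484 on KO day 0 arrays (-0.59, adjusted p 0.386), encode secreted matricellular proteins. Lats2, a Hippo kinase gene that YAP also induces, read 158, 86.8 and 325 against 480.4 and 685, without overlap (-1.69, adjusted p 0.057).

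Among stress genes, 6 of 22 heat shock genes rose and 1 fell (27.3% higher; median 0.34). Hspa1b, an inducible HSP70 gene, read 4187, 6519 and 6112 on KO day 2 arrays, against 685 and 1116 on KO day 0 arrays (6.2-fold, 2.63 ± 0.30), and Hsp90aa1, the inducible HSP90, read 4768, 4776 and 4813 against 2434 and 2924 (0.84 ± 0.15). Both kept their call without any 1 KO array, whereas the count of the list was 3 without KO day 0 replicate 2, 2 without KO day 2 replicate 2 and 3 without KO day 2 replicate 3. The heat shock element GAANNTTC, a pair of inverted GAA units to which HSF1 binds, stood within 250 bases before the start of 4 of the 5 rising heat shock genes with a listed promoter and of 7.73% of all genes. Hspa1b (chr17:34959239-34959488, GRCm38.p6, minus strand) was also picked after the matches were seen and is shown with this element in capitals.
Hspa1b: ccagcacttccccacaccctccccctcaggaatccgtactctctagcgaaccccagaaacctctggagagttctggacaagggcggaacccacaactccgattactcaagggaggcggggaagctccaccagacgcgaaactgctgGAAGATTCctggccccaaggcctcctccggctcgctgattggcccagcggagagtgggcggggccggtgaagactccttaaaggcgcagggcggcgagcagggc
Probe sets of Hspa1b and Hspa1a may read both genes.

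The integrated stress response had 1 rise among 18 genes, Trib3, a pseudokinase induced by ATF4, at 992, 1101 and 943 on KO day 2 arrays against 507 and 443 on KO day 0 arrays (2.09-fold, 1.07 ± 0.18), and 1 fall, Slc3a2, the heavy chain of several amino acid transporters (-0.57 ± 0.14). Each is 5.56% of the list, close to the shares of all genes (4.2% higher and 4.49% lower). Slc3a2 lost its call without KO day 0 replicate 1, KO day 2 replicate 1, KO day 2 replicate 2 or KO day 2 replicate 3 (adjusted p 0.163, 0.077, 0.0927 and 0.0758). Rises numbered 2 without KO day 0 replicate 1. Of 25 chaperones of the endoplasmic reticulum and genes of the unfolded protein response, 3 rose and 0 fell, among them the co-chaperone Dnajb9 at 7428, 9608 and 10795 against 4638 and 4224 (1.05 ± 0.16). Without KO day 2 replicate 2 or 3 only 1 of these was called. Jun was the single rise among 18 immediate early genes (5.56%, close to the 4.2% of all genes), at 1119, 1254 and 1390.2 against 609 and 494 (2.24-fold, 1.17 ± 0.20). Of 18 NRF2 target genes, 4 rose and 1 fell (22.2% and 5.56%, against 4.2% and 4.49% of all genes). Nqo1, the quinone reductase, rose 2.3-fold (1.20 ± 0.17), Entpd5 2.62-fold (1.39 ± 0.15) and the aldehyde oxidase Aox1 2.31-fold (1.21 ± 0.16). Without 1 KO array the number of NRF2 targets called lower ran from 0 (KO day 0 replicate 1, KO day 2 replicate 1 or 3) to 3 (KO day 0 replicate 2).

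**Figure D3:**
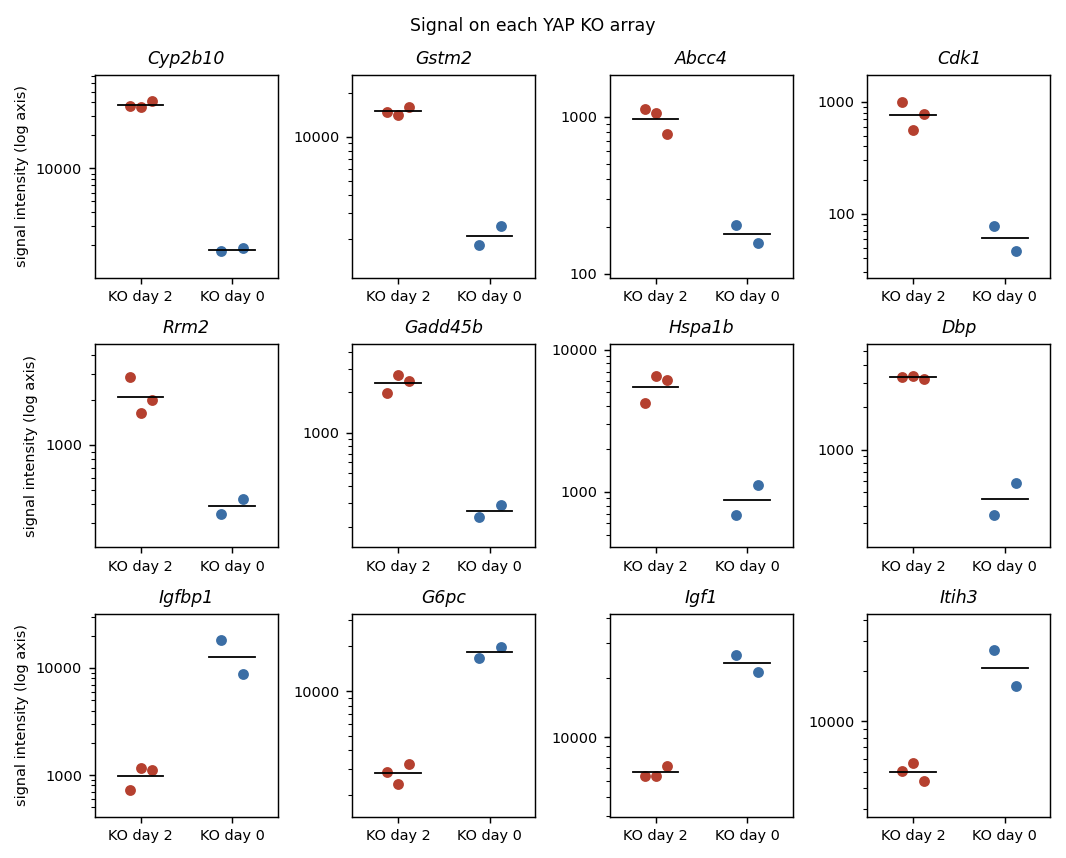
Signal of 12 genes on the 3 KO day 2 arrays (left in each panel) and the 2 KO day 0 arrays (right), on log axes; the line is the mean of the log2 signals. Genes of drug metabolism, replication, stress and the clock lie higher on day 2, and Igfbp1, G6pc, Igf1 and Itih3 lie lower, without overlap in any panel.

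Genes that the fasted or insulin-poor liver uses to release glucose fell in part. Of 21 genes of fasting, insulin and glucose production, 8 fell and 1 rose (38.1% lower, against 4.49% of all genes; median -0.70, and -0.56 after quantile normalization with 8 falls and 2 rises). Igfbp1, a secreted IGF-binding protein that insulin represses, fell to 719, 1171 and 1110.2 on KO day 2 arrays, against 18268 and 8793 on KO day 0 arrays (12.8-fold lower, -3.67 ± 0.35). G6pc, the glucose-6-phosphatase that frees glucose, fell to 2848, 2389 and 3249.6 against 16744 and 19908 (6.47-fold lower, -2.69 ± 0.30). Got1, a transaminase that links amino acids to glucose synthesis, fell to 2081, 2390.4 and 1406 against 9399 and 10171 (5.08-fold lower, -2.34 ± 0.21). The separation is wide in each, and the day 0 arrays of Igfbp1 differ from each other by more than those of G6pc or Got1. Fbp1, another enzyme of glucose synthesis, fell to 18116, 17815 and 18715 against 43041 and 34729 (-1.08 ± 0.12, -0.76 after quantile normalization). Pck1, which commits carbon to glucose, read 3681, 6894 and 6176 against 8437 and 16726 without overlap and missed the threshold (-1.14, adjusted p 0.0641). Ldha, lactate dehydrogenase, fell to 5338, 4998 and 5678 against 20112 and 10834 (-1.47 ± 0.24), the single deposited fall among 18 glycolysis and glycogen genes, where Tpi1 rose (0.56 ± 0.12). Each is 5.56% of these genes, close to the shares of all genes (4.2% higher and 4.49% lower). That list held 4 rises and 2 falls after quantile normalization, and 2 falls without KO day 0 replicate 1.

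Lipid synthesis and oxidation genes were both lower in part. Of 27 lipogenesis genes, 8 fell and 2 rose. Scd1, the desaturase that makes oleate, fell to 34589, 28173 and 37329.6 on KO day 2 arrays, against 73284 and 71694 on KO day 0 arrays (-1.13 ± 0.18, -0.61 after quantile normalization). Elovl5, an elongase of polyunsaturated fatty acids, fell to 14308, 9642 and 12158 against 42016 and 32920.4 (3.13-fold lower, -1.65 ± 0.20, -1.37 normalized), and Plin5, a lipid droplet coat protein, fell 2.4-fold (-1.26 ± 0.19). In the other direction, Pnpla3, a lipid droplet acyl hydrolase, read 1313, 1043 and 1523 against 397 and 492 (2.83-fold, 1.50 ± 0.23), and Elovl3, another elongase, rose 2.87-fold (1.52 ± 0.26). Cholesterol synthesis genes fell in 6 of 21, among them Hmgcs1 at 17789, 14564 and 12106 against 42516 and 29532 (-1.27 ± 0.19, -0.98 normalized), Idi1 (-1.15 ± 0.20) and Srebf2, the gene for their regulator SREBP2, at 667, 618 and 619 against 1169.7 and 1275 (-0.93 ± 0.15). The rise of Insig2, which retains SREBP in the endoplasmic reticulum, was called only with all arrays. Insig2 lost its call without any 1 of the KO arrays (adjusted p 0.056 to 0.183).

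Of 31 genes of fatty acid oxidation and PPAR alpha targets, 12 fell and 2 rose (10 and 2 after quantile normalization; median -0.52 and -0.35). Cyp4a14, a fatty acid hydroxylase strongly driven by PPAR alpha, fell to 950.5, 1315 and 2268 on KO day 2 arrays, against 9162 and 7402 on KO day 0 arrays (5.76-fold lower, -2.53 ± 0.35), and Cyp4f14, which hydroxylates leukotrienes and fatty acids, fell to 1454, 1531 and 991 against 13797 and 7259 (7.61-fold lower, -2.93 ± 0.35). Acadm, a dehydrogenase of mitochondrial oxidation, fell (-0.66 ± 0.12), and so did the fatty acid transporter Slc27a2 (-0.86 ± 0.14, -0.67 after quantile normalization). Vnn1, a pantetheinase also known as a PPAR alpha target, rose 2.26-fold (1.17 ± 0.17). The count of falls was 6 without KO day 0 replicate 1, KO day 2 replicate 1 or KO day 2 replicate 2.

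Among bile acid genes, 6 of 20 fell and 2 rose. Slc27a5 and Baat, which conjugate bile acids, fell to 12723, 11576 and 13068 against 31223 and 23261 (-1.11 ± 0.18, -0.88 after quantile normalization) and to 1966, 1750.1 and 1308 against 3018 and 3746 (-1.02 ± 0.18), and Hsd3b7, an enzyme of the synthesis pathway, fell by 0.87 ± 0.17 on the log2 scale (-0.64 after quantile normalization). Cyp7a1, the rate-limiting enzyme of bile acid synthesis, read 5244, 2802 and 1722 against 5962 and 4612, overlapping groups (adjusted p 0.292). Akr1d1 (0.94 ± 0.14) and Cyp39a1 (0.87 ± 0.16), both of the synthesis pathway, rose. Without KO day 0 replicate 1, the falls numbered 3. The retinoid metabolism list, with 20 genes, held 8 falls and 3 rises as deposited, and 5 and 4 after quantile normalization. Rdh16, a retinol dehydrogenase, fell to 67.3, 53.1 and 56.5 on KO day 2 arrays, against 1016 and 1304 on KO day 0 arrays (-3.96 ± 0.52). Retsat, which saturates retinol, fell to 1028, 1295 and 1586 against 6309 and 4516 (4.12-fold lower, -2.04 ± 0.24), and the alcohol dehydrogenase Adh4 fell to 1203, 999 and 1014 against 4647 and 3261 (3.61-fold lower, -1.85 ± 0.18). The receptor gene Rarb rose 2.34-fold (1.22 ± 0.22). The falls of retinoid genes numbered 5 without KO day 0 replicate 1 or KO day 2 replicate 1.

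Genes of both ends of the liver lobule fell in part. Of 25 urea cycle and periportal genes, 12 fell and 0 rose (9 and 2 after quantile normalization; median -0.65 and -0.43). Etnppl, a phosphoethanolamine lyase, fell to 833, 851 and 873 on KO day 2 arrays, against 4719 and 3612 on KO day 0 arrays (4.77-fold lower, -2.25 ± 0.15), and the urea cycle enzyme Arg1 to 16055, 18348 and 17839.8 against 33794 and 25926 (-0.77 ± 0.16, -0.43 after quantile normalization). Arg1 lost its call without KO day 0 replicate 1 (-0.58, adjusted p 0.0666). Hsd17b13, a lipid droplet retinol dehydrogenase, fell to 1865, 1627 and 1449.9 against 3998 and 4241 (2.5-fold lower, -1.32 ± 0.13). The periportal count was 7 without KO day 0 replicate 1. Of 19 pericentral and Wnt-dependent genes, 7 fell and 2 rose. Glul, glutamine synthetase, fell to 5479.5, 5105 and 5686 against 9824 and 10758 (-0.92 ± 0.13), the Wnt inhibitor Notum to 1177, 1254 and 1199 against 2130.2 and 2261 (-0.85 ± 0.14), and the glutamate carrier Slc1a2 to 484, 733 and 520.4 against 1246 and 1366 (-1.17 ± 0.20). Lect2, a secreted Wnt target, rose to 9972, 10899 and 10761 against 3141 and 3814 (3.04-fold, 1.60 ± 0.15), and Cyp1a2 rose as given above. Without KO day 0 replicate 1, 4 pericentral falls were called.

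Among the gene lists other than cell type markers, those of complement and coagulation and of plasma proteins held the highest shares of falls as deposited. Of 32 complement and coagulation genes, 20 fell and 0 rose (62.5%; 17 and 0 after quantile normalization), with a median of -0.80 as deposited and -0.56 normalized. C9, of the membrane attack complex, fell to 2878, 2788 and 2405 on KO day 2 arrays, against 18144 and 8036 on KO day 0 arrays (4.48-fold lower, -2.16 ± 0.33). Kng1, the kininogen, fell to 9039, 8119 and 8727 against 23272 and 20969 (-1.36 ± 0.12), and F11, a coagulation factor, to 642, 582 and 607 against 1390.3 and 1475 (-1.21 ± 0.21). Mbl1, a mannose-binding lectin, fell 3.6-fold (-1.85 ± 0.27). After quantile normalization C9, Kng1, F11 and Mbl1 stood at -2.03, -1.14, -1.28 and -1.80. C1qb, which macrophages make, fell to 665, 506 and 544 against 1813 and 1767 (3.1-fold lower, -1.63 ± 0.15).

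Of 26 plasma protein and apolipoprotein genes, 16 fell and 3 rose as deposited (median -0.74), against 10 and 3 after quantile normalization (median -0.22). Apolipoprotein and albumin signals lay near the top of the range. Alb read 41726, 42804 and 56706 on KO day 2 arrays against 90511 and 77459.5 on KO day 0 arrays, a deposited change of -0.84 ± 0.15 and a normalized one of -0.10 (adjusted p 0.431), and Apoa1 stood at -0.84 and -0.09 (adjusted p 0.475). Neither was called after normalization. Itih2, a heavy chain of the inter-alpha inhibitors, fell on both scales (-1.46 ± 0.13 and -1.25), and so did Apoh (-1.04 ± 0.13 and -0.59) and Ahsg (-1.02 ± 0.13 and -0.57). Serpina12, a secreted serpin known as vaspin, fell to 69.3, 54.9 and 37.8 against 1585 and 576 (-3.82 ± 0.58). The 3 rises were Apoa4, an apolipoprotein of lipid-loaded liver and gut, at 13820.2, 13207 and 16842 against 4670.5 and 2529 (4.21-fold, 2.08 ± 0.24), Serpina6, the corticosteroid-binding globulin (2.94-fold, 1.56 ± 0.12), and Mttp, which loads lipoproteins with lipid (0.84 ± 0.11).

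The acute phase list divided, with 5 rises and 9 falls among 30 genes. Orm3 and Orm2, acid glycoproteins whose probes may read more than 1 Orm gene, read 2907, 3182 and 2899 against 183 and 124 (18-fold, 4.17 ± 0.19) and 4629, 6865 and 5993 against 269 and 616 (13.6-fold, 3.77 ± 0.29). Serpina3n, an inhibitor of proteases, fell to 1329, 742 and 812 against 5463 and 4873 (5.48-fold lower, -2.45 ± 0.23), and Itih3 fell to 5033, 5671 and 4426 against 26776 and 16181 (4.14-fold lower, -2.05 ± 0.19). The fibrinogen chains Fga (-1.03), Fgb (-1.03) and Fgg (-1.09) fell together, and stood at -0.61, -0.63 and -0.69 after quantile normalization, still called. Without KO day 0 replicate 2, 3 rises of the list were called. Of 14 metallothionein and iron genes, 5 fell and 1 rose. Mt1, a zinc-binding metallothionein, fell to 2538, 1362 and 612 on KO day 2 arrays, against 7300.4 and 9929.9 on KO day 0 arrays (6.55-fold lower, -2.71 ± 0.45), and Hamp2, a hepcidin gene, fell to 6130.1, 2373 and 2836 against 19503 and 36321 (7.67-fold lower, -2.94 ± 0.47). Tfrc, the transferrin receptor, rose 2.4-fold (1.26 ± 0.22), while Tfr2, a hepatocyte iron sensor, fell (-0.92 ± 0.13). Leaving out KO day 0 replicate 1 gave 2 rises in this list.

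Of 17 growth hormone and IGF genes, 6 fell and 0 rose (5 and 0 after quantile normalization). Igf1, the circulating growth factor, fell to 6412, 6409 and 7182 on KO day 2 arrays, against 26094 and 21337 on KO day 0 arrays (3.54-fold lower, -1.82 ± 0.16, -1.61 after quantile normalization). Igfals, which holds it in the blood, fell to 1456, 1131 and 1146 against 5931 and 5387 (4.53-fold lower, -2.18 ± 0.18), and the receptor gene Ghr to 4112, 3654 and 4182 against 11222 and 6577 (2.16-fold lower, -1.11 ± 0.18). The replicates of each group stood apart from the other group in all 3. Of 16 hepatocyte mitogens and receptors, Tgfbr2, the receptor of the growth inhibitor TGF beta, rose 2.68-fold (1.42 ± 0.14), and Met, the receptor of hepatocyte growth factor, fell to 619, 548 and 706 against 1067 and 1307 (-0.91 ± 0.18). Each is 6.25% of the list, where 4.2% of all genes were higher and 4.49% lower. Met lost its call without KO day 0 replicate 2 (-0.77, adjusted p 0.0606). Hepatocyte transcription factors had 1 rise among 18 (5.56%, close to the 4.2% of all genes), that of the repressor Bcl6 at 576, 684 and 517 against 253 and 73.9 (3.89-fold, 1.96 ± 0.40). They had 4 falls (22.2%, against 4.49%), and the count of rises moved when KO day 0 replicate 1 was left out.

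Of 19 clock genes and clock outputs, 6 rose and 2 fell (31.6% higher). Dbp, a PAR bZIP factor that is a direct clock output, read 3283, 3353 and 3208 on KO day 2 arrays, against 341 and 582 on KO day 0 arrays (7.13-fold, 2.83 ± 0.30). Its relative Tef read 4012, 3754 and 3489.7 against 2104 and 1782 (0.95 ± 0.17), and Nr1d2, the nuclear receptor REV-ERB beta, read 2173, 2430.5 and 2235 against 871 and 1022 (2.39-fold, 1.26 ± 0.21). The repressor Bhlhe40 rose 4.22-fold (2.08 ± 0.34), and Rora, an activator of Bmal1, fell to 1096, 1302 and 1266 against 2827 and 2000.4 (-0.96 ± 0.16). Nfil3, a repressor that competes with Dbp for its sites, read 119, 193 and 157 against 645 and 755 (-2.07 ± 0.58). Nfil3 lost its call without any 1 of the KO arrays (adjusted p 0.0829 to 0.166). The hour of harvest is not given in the sources used here. In WT livers 0 of the 19 were called higher and 1 lower, and the changes of Dbp, Nr1d2 and Tef differed from those of WT (difference of log2 changes 3.17 ± 0.42, 1.59 ± 0.30 and 1.43 ± 0.25; adjusted p 0.0068, 0.0217 and 0.0171). The difference of Dbp stayed called without any 1 of 10 arrays, while the call was lost for Nr1d2 without WT day 0 replicate 2 or KO day 2 replicate 2 (adjusted p 0.0679 and 0.0606) and for Tef without WT day 0 replicate 2 (adjusted p 0.0796).

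Of 32 proteasome subunit genes, 9 rose and 1 fell (15 and 1 after quantile normalization). As deposited this was 28.1% and 3.12%, against 4.2% and 4.49% of all genes. Psma7 read 3824, 3659 and 3722 on KO day 2 arrays, against 2393 and 2478 on KO day 0 arrays (0.61 ± 0.12), and Psmb2 read 5403, 4971 and 4489.6 against 3331 and 3279 (0.58 ± 0.12). Psmb7, a catalytic subunit, fell to 4177, 4375 and 4610.3 against 7531 and 7205 (-0.75 ± 0.12). Rises numbered 3, 5 and 4 without KO day 2 replicate 1, 2 or 3. Of 21 tubulin and actin genes, 3 rose and 2 fell; Mical1, which oxidizes actin, read 427, 360.1 and 464 against 6.4 and 57.4 (3.41 ± 0.52), and Myh9, a non-muscle myosin, fell to 1288, 909.9 and 1078 against 2187 and 2303 (2.06-fold lower, -1.04 ± 0.18). Without 1 KO array those counts ran from 1 (KO day 0 replicate 2, KO day 2 replicate 3) to 5 (KO day 0 replicate 1) for the rises, and to 1 fall without KO day 2 replicate 1 or 3. Of 34 respiratory chain and ATP synthase genes 6 fell, and 2 did after quantile normalization; Sdha, a subunit of complex II, fell on both scales (-0.80 ± 0.13 and -0.65). Those falls numbered 13 without KO day 0 replicate 2, 1 without KO day 2 replicate 2 and 2 without KO day 2 replicate 3. None of the 27 cytosolic ribosomal protein genes was called as deposited, 5 passed at an unadjusted p under 0.05, and 3 were called higher after quantile normalization. Left-out arrays gave 1 higher (KO day 0 replicate 1) or 4 lower (KO day 0 replicate 2). Ribosome biogenesis genes had 1 rise among 29 (3.45%, close to the 4.2% of all genes) and no fall, and the rise was not called without KO day 2 replicate 1 or 3.

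Markers of other cell types were called in both directions, beside 4.2% of all genes higher and 4.49% lower. In lists of 2 to 15 markers such counts rest on single genes and describe those genes, not cell types. In the macrophage list 2 of 14 fell, C1qb as above and Clec4f, which marks Kupffer cells (-0.95 ± 0.23), and the summed signal was 13213 to 18402 on KO day 2 arrays and 19409 to 20044 on KO day 0 arrays. Clec4f lost its call without KO day 0 replicate 2, KO day 2 replicate 1 or KO day 2 replicate 3 (adjusted p 0.169, 0.0758 and 0.084). Sinusoidal endothelial markers fell in 2 of 15 (Ptprb at -0.68 and Oit3 at -2.43) and stellate markers in 3 of 13 (Ecm1 at -0.52, Dcn at -0.71 and Reln at -0.77). Summed signals overlapped for endothelial markers (12616 to 15128 against 14027 to 17973) and for lymphocyte markers (6184 to 7502 against 5487 to 7035), and stellate markers summed to 15522 to 16970.4 against 18715 to 23659.6. In the lymphocyte list 1 of 8 rose, Cd8a, a T cell coreceptor (0.80 ± 0.17), and of the 2 erythroid markers 1 fell, Alas2, which starts haem synthesis in red cell precursors (-1.98 ± 0.41). Cd8a lost its call without KO day 0 replicate 2 (0.73, adjusted p 0.0548). Alas2 lost its call without KO day 0 replicate 2 (-1.79, adjusted p 0.07). None of the 6 neutrophil markers was called (1 at an unadjusted p under 0.05). Prom1, a membrane protein used to mark progenitor cells and bile duct cells, read 3284, 4018 and 4107 on KO day 2 arrays, against 306 and 176 on KO day 0 arrays (15.3-fold, 3.93 ± 0.39), while the duct and progenitor genes Epcam, at 395, 1001 and 718 against 1272 and 788, and Sox9, at 392, 237 and 317 against 238 and 399.8, overlapped between the groups. Lists of 13 or more markers moved with single arrays as follows. Macrophage falls numbered 1 without KO day 0 replicate 2, KO day 2 replicate 1 or KO day 2 replicate 3. Endothelial falls numbered 0 without KO day 0 replicate 1 and 1 without KO day 2 replicate 2, and stellate falls 1 without KO day 0 replicate 1, KO day 2 replicate 2 or KO day 2 replicate 3. Oit3 also lost its call without KO day 0 replicate 2, Ecm1 without the same array, and Dcn without KO day 2 replicate 1 (adjusted p 0.054, 0.0545 and 0.0667). The part of other cell types in the results above was not tested.

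Where KO livers differed from WT livers was tested as the difference between the day 2 changes of both, KO minus WT, which share no array. Limma called 444 of 14102 genes (3.15%), 153 with a higher and 291 with a lower change in KO, and 2963 passed at an unadjusted p under 0.05. After quantile normalization 283 (2.01%) were called, 249 of them the same genes. Single arrays weighed on this count, with 57 called without WT day 0 replicate 2, 89 without KO day 2 replicate 2, 113 without WT day 0 replicate 1, 195 to 285 without 1 of the other day 2 arrays, and 614 and 698 without KO day 0 replicate 2 and 1. Of the 444, 40 stayed called without any 1 of the 10 arrays. Among genes named here these were Denn2b, H2-Q5, Tnfrsf12a, Psmb7, Myh9, Cdc20, E2f8, Ccnf, Dbp, Hsd17b13, Alb and Gstm1, of which Alb and Gstm1 were not called after quantile normalization. The median difference over all genes was 0.11 as deposited and -0.02 after median centring. The signal range moved in opposite ways in the 2 genotypes, and cre read 44676, 45804 and 49642 on WT day 2 arrays against 27259 and 27576 on WT day 0 arrays. Of the 11 plasma protein and apolipoprotein genes with a lower change in KO as deposited, 0 stayed called after quantile normalization, and of the 5 hepatocyte markers 0 did.

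Genes of G2 and mitosis had 14 rises among 54 in KO livers and 32 in WT livers, with medians of 0.55 and 1.32. The change was lower in KO for 8 of them as deposited and 6 after quantile normalization, and higher for 0 on both scales. Among all 14102 genes it was lower for 291 as deposited. After quantile normalization 283 (2.01%) were called in both directions together, so the share with a lower change was at most 2.01%. Ccnb2 changed by 3.36 ± 0.29 in KO and 5.40 ± 0.29 in WT (difference -2.04 ± 0.41, adjusted p 0.0264). Plk1, a mitotic kinase, read 349, 298 and 204 on KO day 2 arrays and 235 and 328 on KO day 0 arrays, against 1018, 683 and 808 on WT day 2 arrays and 141 and 48.9 on WT day 0 arrays (difference -3.06 ± 0.56, adjusted p 0.0198). Cdc20, which activates the anaphase-promoting complex, differed by -2.79 ± 0.36 (adjusted p 0.0068) and the condensin subunit Smc4 by -1.39 ± 0.25 (adjusted p 0.0188). The rise of Smc4 within KO livers, a separate result, lost its call without any 1 of the KO arrays (adjusted p 0.0527 to 0.0721). Replication genes went both ways. Mcm7 (-1.20 ± 0.20, adjusted p 0.0148) and the sliding clamp Pcna (-1.47 ± 0.26, adjusted p 0.019) changed less in KO, while Mcm4 rose by 1.44 in KO and stood at -0.27 in WT (1.71 ± 0.36, adjusted p 0.0307). The rise of Pcna within KO livers lost its call without KO day 0 replicate 2 (0.69, adjusted p 0.0693). The call of the difference was lost for Plk1 without WT day 0 replicate 2 or KO day 2 replicate 2 (adjusted p 0.0679 and 0.0506), for Smc4 without WT day 0 replicate 1 or KO day 2 replicate 2 (adjusted p 0.0651 and 0.0566), for Mcm7 without WT day 0 replicate 2 (adjusted p 0.0679) and for Pcna without WT day 0 replicate 2 or KO day 2 replicate 2 (adjusted p 0.0826 and 0.0546). It was lost for Ccnb2 without any of 7 arrays, all but KO day 0 replicate 1, KO day 0 replicate 2 and KO day 2 replicate 1 (adjusted p up to 0.0883), and for Mcm4 without any of 7 arrays, all but WT day 2 replicate 1, WT day 2 replicate 2 and KO day 0 replicate 2 (adjusted p up to 0.104). Tnfrsf12a, the receptor of the cytokine TWEAK, read 148, 146 and 156 on KO day 2 arrays and 129.5 and 70.3 on KO day 0 arrays, against 2606, 3679.6 and 2386 and 122 and 132 in WT livers (difference -3.76 ± 0.41, adjusted p 0.0068).

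The lower changes of phase I and phase II genes in KO were not called after quantile normalization. Drug and bile acid transporters had 1 lower change in KO as deposited and 1 normalized, and NRF2 targets had 2 and 1. Cyp2b10 (-0.56 ± 0.16, adjusted p 0.0775) and Cyp2c55 (-0.21 ± 0.24, adjusted p 0.655) did not pass the test of the difference. Gstm3 (-1.28 ± 0.25, adjusted p 0.0231) and Ces2a (-1.23 ± 0.21, adjusted p 0.0174) had a lower change in KO as deposited, and stood at -0.54 and -0.31 after quantile normalization (adjusted p 0.0968 and 0.283). These calls were lost for Gstm3 without WT day 0 replicate 1, WT day 0 replicate 2, WT day 2 replicate 3 or KO day 2 replicate 2 (adjusted p up to 0.0952) and for Ces2a without WT day 0 replicate 1 or KO day 2 replicate 2 (adjusted p 0.0732 and 0.0555). Of the phase I list, 5 had a lower and 1 a higher change in KO as deposited, against 0 and 2 normalized. Cytoskeletal genes had a lower change in KO in 9 of 21 as deposited and 5 normalized, cytosolic ribosomal proteins in 8 of 27 and 3, and proteasome subunits in 5 of 32 and 2. Over all 14102 genes, 291 had a lower and 153 a higher change as deposited. Normalized, 283 (2.01%) were called in both directions together, so the share with a lower change was at most 2.01%. Myh9 fell by 1.04 ± 0.18 in KO and changed by 0.83 ± 0.18 in WT (adjusted p of the difference 0.0069), and Psmb7 fell by 0.75 ± 0.12 in KO and changed by 0.88 ± 0.12 in WT (adjusted p 0.0058).

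Several rises and falls stood out from WT on both scales. Hspa1b changed by 2.63 in KO and 0.11 in WT (difference 2.52 ± 0.43, adjusted p 0.0167), and Pnpla3 by 1.50 and -0.04 (difference 1.53 ± 0.32, adjusted p 0.031). Orm3 differed by 1.43 ± 0.27 (adjusted p 0.0217). Igfbp1 changed by -3.67 in KO and -0.87 in WT (difference -2.80 ± 0.49, adjusted p 0.0187), with signals of 875, 1119 and 866 on WT day 2 arrays and 1188 and 2555 on WT day 0 arrays. Btg1 (-1.33 ± 0.23) and Hsd17b13 (-1.25 ± 0.19) had lower changes in KO, with adjusted p of 0.0171 and 0.0103. Denn2b, a regulator of Rab GTPases, fell to 115, 56.0 and 78.4 on KO day 2 arrays, against 775 and 670.2 on KO day 0 arrays (-2.94 ± 0.43), and rose in WT livers (1.52 ± 0.43, difference -4.45 ± 0.60). The call of the difference was lost for Hspa1b without WT day 0 replicate 2 (adjusted p 0.0793), for Igfbp1 without WT day 0 replicate 1 (adjusted p 0.0623), for Orm3 without WT day 0 replicate 1 or KO day 2 replicate 2 (adjusted p 0.0801 and 0.0606), for Btg1 without WT day 0 replicate 1 or WT day 0 replicate 2 (adjusted p 0.0629 and 0.0679) and for Pnpla3 without any of 8 arrays, all but WT day 2 replicate 3 and KO day 0 replicate 2 (adjusted p up to 0.121).

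**Figure D4:**
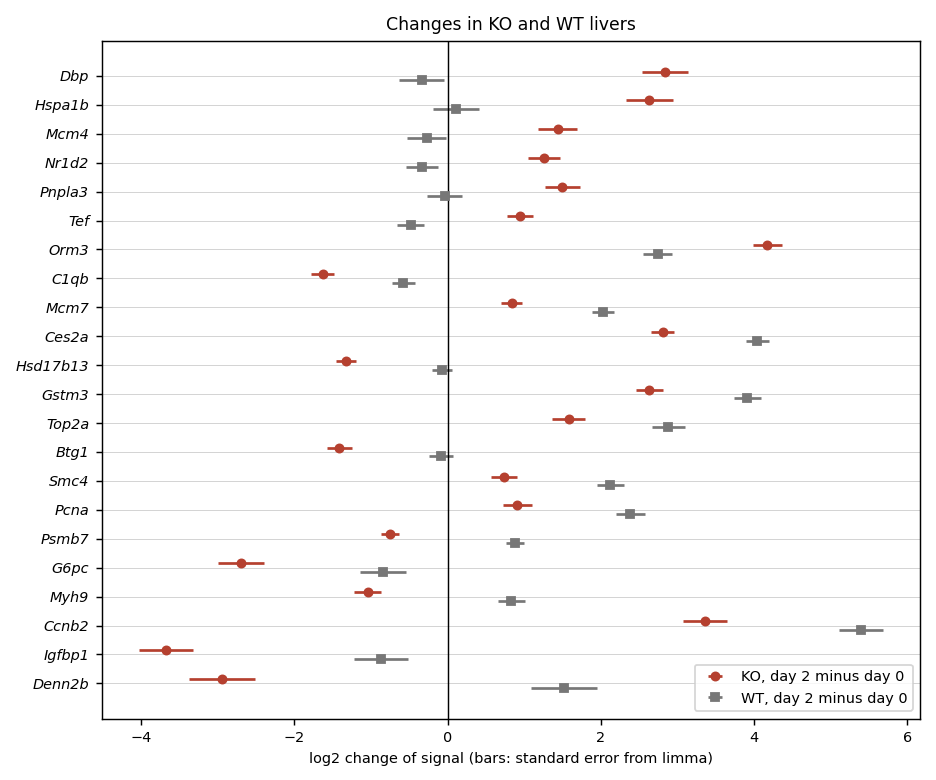
Log2 change from day 0 to day 2 in KO livers (red circles) and WT livers (grey squares) for 22 genes, with bars of 1 standard error from limma (3 against 2 arrays in each genotype). Clock genes, Hspa1b and Pnpla3 lie further right in KO, and mitotic genes, Igfbp1, Myh9 and Denn2b lie further left. Top2a, G6pc and C1qb are shown with the rest, and their differences are given among the values for a closer look.

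Large changes outside the pathway lists were taken by size among called genes. Pnliprp1, a pancreatic lipase relative, read 832, 978 and 869.6 on KO day 2 arrays, against 11.9 and 38.0 on KO day 0 arrays (4.55 ± 0.41), while the 7 other markers of exocrine pancreas tested were not called. The muscle-type adenylosuccinate synthetase gene Adssl1 read 2027, 2182 and 1976 against 85.5 and 88.7 (20.1-fold, 4.33 ± 0.17). Smpd2, a neutral sphingomyelinase, read 2098, 2264 and 3681 against 187 and 306 (10.2-fold, 3.35 ± 0.27), and Prss8, the membrane protease prostasin, read 674, 762 and 905 against 52.1 and 83.2 (3.27 ± 0.25). These 4 genes were higher on all KO day 2 arrays by a wide margin. Sult2a2, a hydroxysteroid sulfotransferase, rose 9.53-fold (3.25 ± 0.48), with day 0 arrays that differed from each other (407 and 1831). The unnamed transcript 2310015K22Rik read 399.6, 296 and 255 against 16.9 and 16.5 (3.32 ± 0.48). Among these KO arrays only day 2 replicates 1 and 2 lay above their array medians (259.9 and 270.3), as the filter on low signals asks.

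Among the falls by size, St6galnac6, a sialyltransferase of gangliosides, fell to 116, 97.2 and 80.1 on KO day 2 arrays, against 1406 and 1339 on KO day 0 arrays (12.3-fold lower, -3.62 ± 0.37). Rtp3, a transporter of receptor proteins made mainly in liver, fell to 158, 63.1 and 27.4 against 1045 and 862 (-3.52 ± 0.56). Pltp, the phospholipid transfer protein, fell to 776, 392 and 524 against 3079.9 and 5180.0 (7.18-fold lower, -2.84 ± 0.28), and Fabp5, a fatty acid binding protein, to 2458, 1057 and 1059 against 9541 and 9831 (6.84-fold lower, -2.77 ± 0.39). In all 4 the groups stood clear of each other. Rdh16f2, a relative of Rdh16 that may share probes with it, fell 7.25-fold (-2.86 ± 0.31). H2-Q5, a class Ib histocompatibility gene with near-identical relatives, fell to 193, 259 and 196 against 1064 and 2122 (6.61-fold lower, -2.72 ± 0.30), and its change differed from that of WT by -3.40 ± 0.43 (adjusted p 0.0068).

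The single KO array of day 1 holds pooled RNA and gives no spread, and its values are set beside those of KO day 0 and KO day 2 with no test. Values are as deposited, and the pool had a wider signal range than the KO day 2 arrays. Its spiked control cre read 38053, against 16684, 16986 and 21575 on those arrays. The part of this range in the values below was not tested. As deposited, Cyp2b10 and Myc in the pool stood above their day 2 range and Gadd45b within it. Cyp2b10 read 1771 and 1867 on day 0, 48492 in the day 1 pool and 36931, 36514 and 40975 on day 2. Myc read 72.2 and 132, then 808, then 506, 570.0 and 669, and Gadd45b 237 and 288, then 2244, then 1960.3, 2703 and 2437. Alas1 was highest in the pool, with 3460.0 and 4842 on day 0, 32569 on day 1 and 13026, 16204 and 17791 on day 2. Rrm2 and Pcna were also highest in the pool, whereas the replication gene Mcm2, at 955, lay within its day 2 range. Rrm2 read 343 and 436 on day 0, 4586 in the pool and 2854, 1643 and 2007 on day 2, and Pcna read 1626 and 1185, then 6331, then 3125, 2626 and 2213. Mitotic genes differed among themselves: Ccnb2 read 318 in the pool, below all day 2 arrays and above both day 0 arrays, whereas Cdk1 read 920.2, within the range of day 2. Dbp, at 471, lay within its day 0 range of 341 and 582 and far below its day 2 values. Hspa1b, at 5448, lay within its day 2 range, Igfbp1, at 1298, just above it, and G6pc, at 5262, lay between its day 0 and day 2 values.

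**Figure D5:**
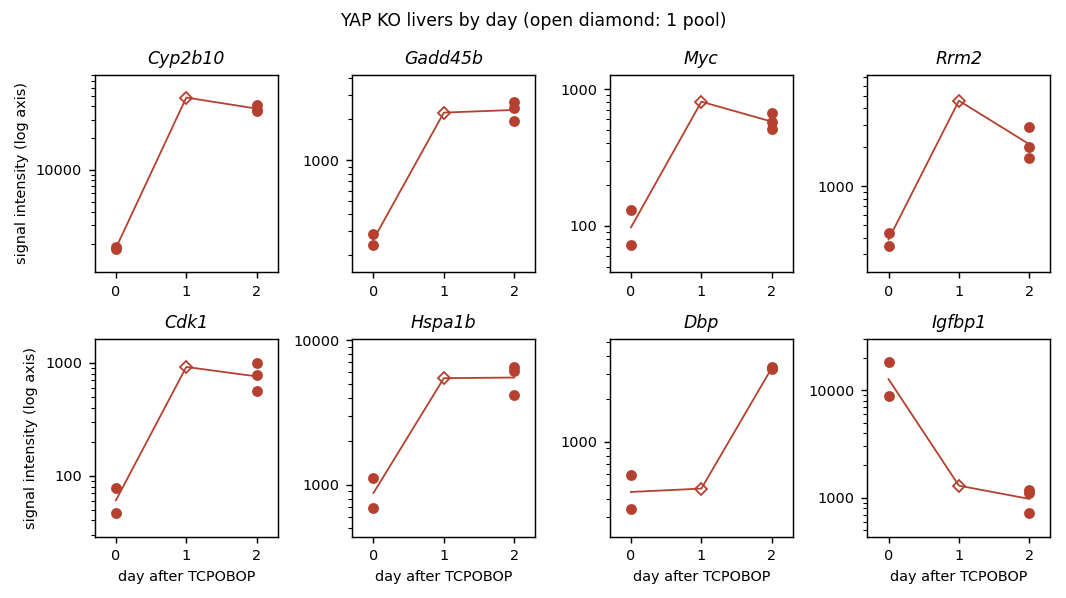
Signals of 8 genes in KO livers on day 0 (2 arrays), day 1 (1 pool, open diamond) and day 2 (3 arrays), on log axes, with lines through the means of the log2 signals. As deposited, Rrm2 is highest in the day 1 pool, and Dbp leaves its day 0 level only on day 2.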

How the data were processed

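Liver RNA was hybridized as biotinylated cRNA to Affymetrix arrays. The deposited intensities were made by the authors with MAS5, per the submitters' processing notes (version not given in the sources used here). Every array has a trimmed mean of 499.9 (2nd to 98th percentile) and a median between 231.6 and 277.0. Of 45101 probe sets, 34945 name 1 gene in the platform annotation, 932 several, 9160 none, and 64 are controls. Probe sets above the array median on at least 2 of 12 arrays were kept, which left 14102 of 18193 genes to test. The brightest kept probe set stood for each gene. A gene low on 1 day could pass this filter through the arrays of the other day alone. Log2(intensity + 16) was fitted in limma 3.58.1 (R 4.3.3) with 6 group means over all 12 arrays (6 residual degrees of freedom), eBayes with trend and robust, two-sided, Benjamini-Hochberg adjusted. The deposited scale is the main one, and quantile and cyclic loess normalization, median centring, pseudocounts of 1 and 64, other filters, the mean of probe sets, array weights, the replicate block and leaving out each array were alternatives. The scripts were tested on simulated data with known changes. Of 100 changes of 2-fold, 50 were called, and of 100 of 4-fold, 72, all with the right sign. False calls made up 6.87% of the calls. A gene that did not pass may therefore still have changed. Deviations of same-numbered arrays correlated between -0.02 and 0.03, and those of other pairs between -0.058 and 0.037. With 2 or 3 arrays in a group this cannot exclude a pairing, and none was used in the main fit.

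Genes, lists and the promoters shown were chosen with earlier results of these data known. A rule listed a panel, the 15 largest rises and falls, up to 6 called members of each of 40 gene lists and 11 marker lists by size, and the 10 largest called differences from WT in each direction. Many of the 227 genes so listed are not named in the text. Among those left out are most of the 10 highest differences from WT, several of the 10 lowest and some of the 15 largest falls. Further genes in the text, among them many of those reported as not passing, were named after their values were seen. Genes without a probe set of their own are not analysed here. Promoters are those of RefSeq, GRCm38.p6. Figures were drawn with matplotlib 3.10.9 from tables made with pandas 2.3.3 and numpy 2.4.6 (Python 3.11.15).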

Additional observations from a re-analysis of the deposited data

Results flagged for a closer look

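For 45 genes named above the day 2 change differed between KO and WT livers by limma's test of the difference itself, at an adjusted p under 0.05 over all 14102 genes (444 called, 3.15%). Of the 45, 28 were also called after quantile normalization. With 1 array left out at a time, 16 (without WT day 0 replicate 2) to 41 (without KO day 0 replicate 2) stayed called, and 12 stayed called throughout.

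Values are differences of log2 changes, KO minus WT, as deposited. Higher changes in KO were those of Dbp (3.17), the transcript 2310015K22Rik (3.16), Hspa1b (2.52), Wee1 (2.50), Mcm4 (1.71), Nr1d2 (1.59), Pnpla3 (1.53), Tef (1.43), Orm3 (1.43) and Dnajb9 (0.99). Among genes of proliferation and the cytoskeleton, lower changes in KO were those of Ccnf (-3.75), Gins1 (-3.36), Plk1 (-3.06), Cdc20 (-2.79), E2f8 (-2.57), Ccnb2 (-2.04), Myh9 (-1.87), Pcna (-1.47), Smc4 (-1.39), Top2a (-1.30) and Mcm7 (-1.20). Tnfrsf12a (-3.76), Denn2b (-4.45), H2-Q5 (-3.40), St6galnac6 (-2.98), Igfbp1 (-2.80), G6pc (-1.85), Psmb7 (-1.63), Btg1 (-1.33), Hsd17b13 (-1.25) and C1qb (-1.05) also changed lower in KO.

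Genes of drug metabolism and plasma proteins had lower changes in KO as deposited: Alb (-1.54), Gstm1 (-1.48), Apoa1 (-1.37), Gstm3 (-1.28), Ces2a (-1.23), Cyp3a11 (-1.21), Ahsg (-0.99), Fgg (-0.88), Fga (-0.88), Fmo5 (-0.87), Fgb (-0.85), Mgst1 (-0.84) and Ephx1 (-0.81). After quantile normalization 0 of these 13 stayed called. Cyp39a1 differed by -0.98. Wee1, G6pc, Top2a and Cyp39a1 were not called after quantile normalization either (adjusted p 0.0535, 0.0708, 0.0539 and 0.0666). The difference lost its call for Wee1 without any of 9 arrays, all but KO day 0 replicate 2 (adjusted p up to 0.157), for G6pc without any of 9 arrays, all but WT day 2 replicate 2 (adjusted p up to 0.14), for Top2a without any of 8 arrays, all but KO day 0 replicate 2 and KO day 2 replicate 3 (adjusted p up to 0.137) and for Cyp39a1 without any of 8 arrays, all but WT day 2 replicate 2 and KO day 0 replicate 2 (adjusted p up to 0.131).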

How the results depend on the processing

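Precision is limited by the number of arrays, 3 against 2. Rises and falls numbered 592 and 633. Rises moved to 385 with only the arrays compared, 385 with array weights and 258 at an adjusted p under 0.01, and leaving out 1 array gave 337 to 684. Falls moved to 412 without trend and robust moderation, 416 with only the arrays compared and 310 at the stricter threshold, and leaving out 1 array gave 420 to 708. The 444 differences from WT moved to 283 with quantile normalization, 275 with no filter, 76 without trend and robust moderation, 286 with the replicate block and 34 at the stricter threshold, and leaving out 1 array gave 57 to 698. Whether the replicate numbers pair the arrays is not known, and the main fit did not use them. With the number as a block, 463 rises and 556 falls were called.

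Of the 170 genes named and called, 167 stayed called after quantile normalization, 163 with the block and 135 in every alternative run. Among the genes named, the sign changed in 7. Yap1 turned to -0.007 (quantile), -0.018 (median centring), -0.069 (mean of probe sets), -0.026 (array weights), -0.086 (block) and, with 1 array left out, ran from -0.14 to 0.14. Cyp3a11 turned to 0.46 (quantile) and 0.15 (cyclic loess), and Mgst1 to 0.17 (quantile). Foxm1 turned to -0.008 with median centring and ran from -0.15 to 0.28 with 1 array left out, as did Cdkn1a from -0.55 to 0.11, Ccn1 from -0.34 to 0.035 and Nr1i2 from -0.030 to 0.38. The cause of each move was not tested.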
